A study of Mus musculus with 6 samples.

Results

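The 39 genes described here carry fatty acids from the cell surface through mitochondrial and peroxisomal β-oxidation to ketone bodies, and include regulators of that route. They were taken by symbol from a list ordered by step, with 3 genes of uptake, 4 of activation, 5 of the carnitine shuttle, 12 of the mitochondrial spiral, 3 of the electron transfer flavoprotein system, 6 of peroxisomes, 2 thioesterases, 2 ketone body enzymes and 2 regulators. All 39 were found among the 34685 genes with normalized values, and 38 of them passed the filter on low counts that kept 15374 genes for testing. RNA came from tumors of the murine hepatocellular carcinoma line HCA-1, injected as 1000000 cells under the liver capsule of male C3H mice (C3H/HeNCrNarl) aged 6 to 8 weeks, so that host liver lay around each tumor. Tumors of 3 untreated mice, with libraries titled control 5, 6 and 7, were compared with tumors of 3 mice given GOx-DOX-LGP intravenously, called treated tumors. The libraries of the treated tumors were titled with the numbers 1, 2 and 5. GOx-DOX-LGP is a pH-sensitive lipid, gelatin and protamine nanogel loaded with glucose oxidase, which consumes glucose, and the cytotoxic drug doxorubicin. The labels place dosing on days 18, 19 and 20 but the analysis on day 17 after 3 hours of circulation, and both cannot hold. For tumor RNA measured by PCR, the study's supplement gives the same dosing days and a harvest after the last dose. It states no harvest day for the sequenced RNA. There was no group given the empty carrier or a single agent among these libraries, so the effect of the carrier, GOx and DOX cannot be told apart here.

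Long-chain fatty acids enter the cell with the help of transporters and binding proteins and are trapped as acyl-CoA. The carnitine shuttle passes them into mitochondria, where each turn of the β-oxidation spiral releases acetyl-CoA and hands electrons to the respiratory chain through the electron transfer flavoprotein. Peroxisomes shorten very long, branched and dicarboxylic acids. Hepatocytes turn the surplus acetyl-CoA into ketone bodies, which other tissues burn, and the nuclear receptor PPARα with its coactivator PGC-1α drives much of this program in the fasting liver.

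PPARα binds DNA with the retinoid X receptor at a direct repeat of AGGTCA spaced by 1 base, and the promoters of these genes were searched for it because most of them moved together between libraries. RefSeq promoters of build GRCm38.p6, each 300 bases long with 250 before the transcription start and 50 after it, were matched for 34 of the 39 genes, giving 37 promoters. Not matched were Cpt1b, Crat, Acaa2, Decr1 and Hsd17b4. The letters AGGTCANAGGTCA were searched on both strands with up to 2 mismatches among their 12 fixed letters. They were met in 6 of the 37 promoters (16.2%), and in 1268 of all 32851 promoters of the same length (3.86%). The match in Fabp1 had 1 mismatch and each of the others had 2. The 6 stretches are shown because they are the closest matches in the list, written on the strand of the match with capitals for the letters that equal the motif.
Fabp1: AGGcCAtAGGTCA
Acox2: AGGaCAgAGGTgA
Cd36: AaGTCAgAGGcCA
Echs1: AGGTCAcgGGTCc
Etfa: AGGgCAaAGGTaA
Slc25a20: AGGTgAaAGGTCg

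Counted from the transcription start, the matches began at base -67 in Fabp1, -63 in Cd36, -83 in Echs1 and -77 in Etfa, and at base 9 in Acox2 and 6 in Slc25a20. The whole promoters of Fabp1 (chr6:71199629-71199928, plus strand) and Etfa (chr9:55512194-55512493, minus strand) are given because these genes stand for the large and the moderate differences between control libraries described further on. They run 5′ to 3′ on the strand of the gene, and the capitals mark the match, which in both lies on the opposite strand and so reads as the reverse complement of the line above.
Fabp1: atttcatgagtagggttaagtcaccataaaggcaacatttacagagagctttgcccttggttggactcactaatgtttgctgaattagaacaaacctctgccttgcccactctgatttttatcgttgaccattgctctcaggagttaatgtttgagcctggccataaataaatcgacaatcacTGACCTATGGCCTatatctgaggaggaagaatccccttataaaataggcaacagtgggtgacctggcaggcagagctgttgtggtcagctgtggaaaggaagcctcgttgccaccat
Etfa: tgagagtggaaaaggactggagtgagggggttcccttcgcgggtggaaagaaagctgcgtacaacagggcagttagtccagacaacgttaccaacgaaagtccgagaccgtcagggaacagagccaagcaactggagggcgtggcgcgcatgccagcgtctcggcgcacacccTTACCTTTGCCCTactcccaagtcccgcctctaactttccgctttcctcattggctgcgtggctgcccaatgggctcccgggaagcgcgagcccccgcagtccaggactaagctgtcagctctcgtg

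A match of letters is a description of the sequence and does not show that a factor binds there. The promoters of Ppara, Ehhadh, Acaa1b, Bdh1, Slc27a2 and Acsl1 held no match in these windows, which says nothing of sites elsewhere.

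Each library held between 15529940 and 18401178 counts, and levels are given as CPM, the count of a gene scaled by TMM to a common library size. Control 5 stood apart from controls 6 and 7 before any single gene was considered. Over the 15374 genes kept, its log2 CPM correlated with r = 0.730 and 0.659 with controls 6 and 7, and with r = 0.966 to 0.975 with the treated libraries, while controls 6 and 7 correlated with each other with r = 0.969. These values are a description over genes of libraries that share one scaling. The summed level of 12 hepatocyte markers was 659.5 CPM in control 5, 130679 in control 6 and 215781 in control 7, against 3579.6, 1462 and 2008 CPM in the treated tumors. Alb, the plasma albumin gene and the defining hepatocyte transcript, was at 353 CPM in control 5, 73804 in control 6 and 128244 in control 7, and at 1893, 733 and 1061 CPM in treated tumors 1, 2 and 5. None of the 12 markers was at 0 in any library. The proliferation markers ran the other way, with sums of 931, 258 and 37.3 CPM in the controls and 644 to 809 CPM in the treated tumors. In bulk RNA, fewer cells of a type and less RNA per cell cannot be told apart. The edgeR counts of calls are therefore given with control 5 and without it, and the part of hepatocyte content in the results was not tested. DESeq2 was run over all 6 libraries only. Nothing beyond the replicate numbers in the sample titles says how the libraries arose. The p-values therefore set a difference between groups against the spread between these samples only.

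Most of the 39 genes had lower mean levels in the treated tumors, but none passed the adjusted edgeR test over all 6 libraries, in which control 5 lay with the treated group, while DESeq2 and limma voom made calls. The summed level of the list was 1748 CPM in control 5, 14377 in control 6 and 23754 in control 7, against 1977, 1892 and 1881 CPM in treated tumors 1, 2 and 5. The fitted log2 fold change (treated minus control) was below 0 for 35 of the 38 genes kept, against 48.9% of all genes kept, and its median was -2.06 against 0.02 over all genes. The 3 genes above 0 were Acsl3, Acot2 and Oxct1, and Acsl4 and Crat joined them when libraries were scaled by their totals alone. In edgeR's quasi-likelihood test, 30 of the 38 had an unadjusted p under 0.05, all of them lower, where 14.6% of all genes kept were called lower and 2.87% higher. With Benjamini-Hochberg adjustment 0 of the 38 passed, as did 0% of all genes, and the smallest adjusted p was 0.247. DESeq2 called 21 of the genes lower and 0 higher at an adjusted p under 0.05, against 8.86% and 0.567% of the 17812 genes it tested. Limma voom with sample quality weights called 35, Acsl3 among them as higher, in a fit that called most of all genes kept. Such weights can count a library that departs from its group for less, and the weight of control 5 was not examined. The ranges of the groups were apart for 2 genes, Etfdh on the lower side and Acsl3 on the higher side, where 8.31% and 8.87% of all genes kept were apart in these directions.

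Without control 5 the picture changed. That library was set aside after its levels had been seen to lie with the treated tumors. The fit then holds 2 controls, and its falls and p-values, here and below, give no independent support for a difference between the groups. Of the 38 genes, 34 fell in the treated tumors at an adjusted p under 0.05 in edgeR's quasi-likelihood test and 0 rose, against 25.5% and 22.2% of the 16249 genes kept in that fit, and the median log2 fold change was -2.50. The 4 that did not pass were Acsl3, Acsl4, Acot2 and Oxct1. Controls 6 and 7 lay above every treated library for 34 of the 39 genes and below every one for 2, where 34.7% and 37.2% of all genes kept did so. Control 5 lay within the range of the treated libraries for 18 of the 39 genes, below it for 19 and above it for 2, with 45.6%, 26% and 28.4% of all genes kept in these positions.

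**Figure D1:**
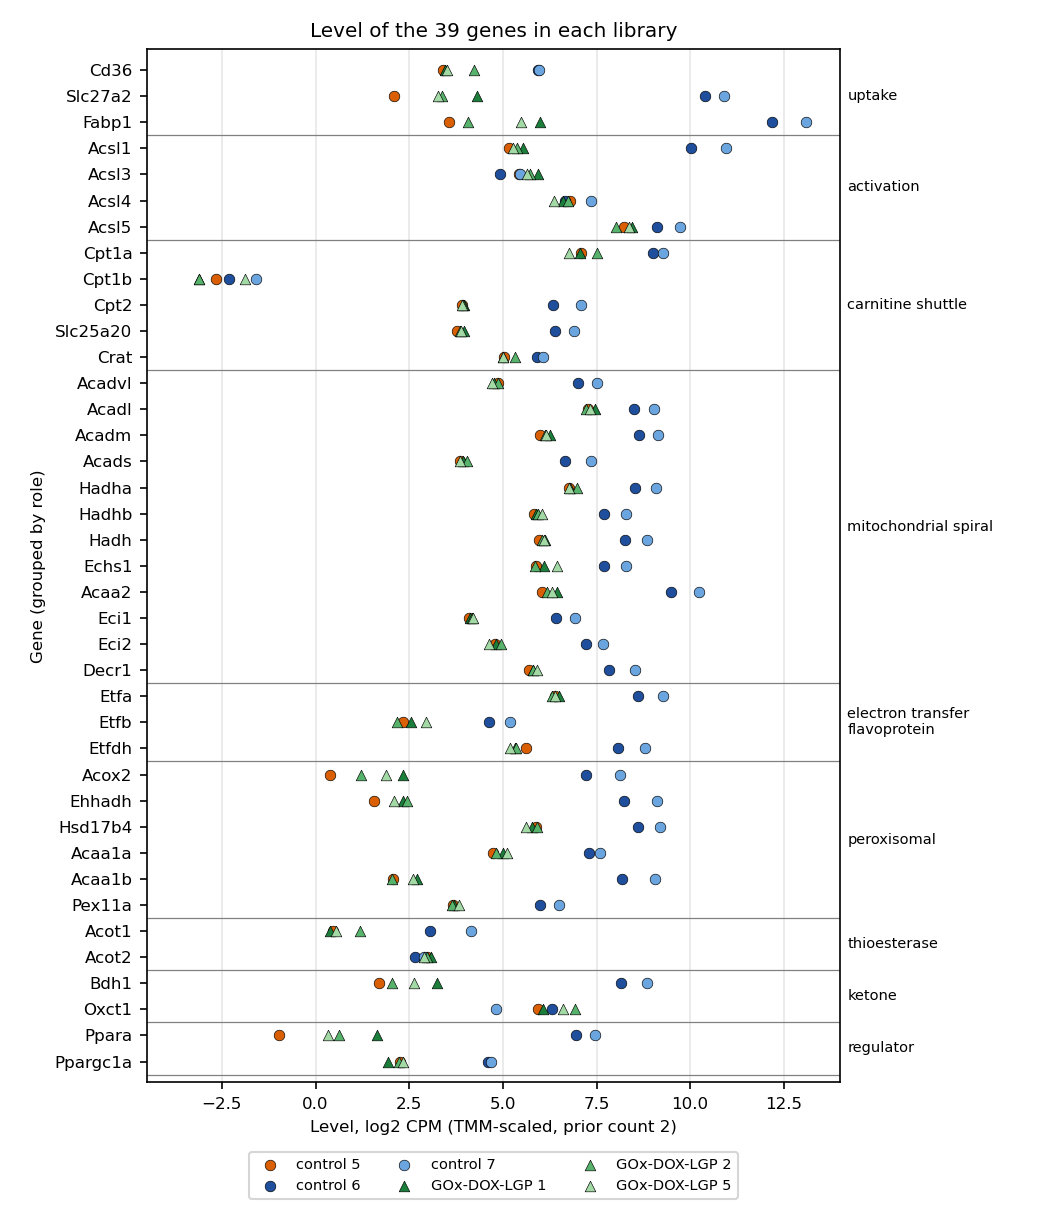
Level of each of the 39 genes in each library, as log2 CPM with a prior count of 2, grouped by step. Circles are controls and triangles are GOx-DOX-LGP libraries; controls 6 and 7 (blue) stand to the right for 34 genes, while control 5 (orange) lies among or left of the treated libraries for 37.

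Uptake held the widest spans. Fabp1, the liver fatty acid binding protein (chr6:71199827-71205023, GRCm38), was at 11.8 CPM in control 5, 4697 in control 6 and 8776 in control 7, and at 63.4, 16.6 and 45.0 CPM in treated tumors 1, 2 and 5. Slc27a2, which encodes a transporter with very-long-chain acyl-CoA synthetase activity, was at 4.17 CPM in control 5, 1350.2 in control 6 and 1902 in control 7, and at 19.6, 10.3 and 9.47 CPM in treated tumors 1, 2 and 5. In both genes control 5 was the lowest library of all, and controls 6 and 7 were over 100 times its level. Their log2 fold changes were -6.75 ± 2.12 (SE, adjusted p = 0.247) and -6.37 ± 1.92 (SE, adjusted p = 0.247) in edgeR with all libraries. Without control 5 Fabp1 fell by 7.30 ± 0.70 on the log2 scale (SE, edgeR adjusted p = 0.000214), or 158-fold, and Slc27a2 fell 121-fold. Cd36, the scavenger receptor that takes up fatty acids in muscle, fat and macrophages, was at 10.4 CPM in control 5, 61.6 in control 6 and 62.2 in control 7, and at 10.9, 18.7 and 11.2 CPM in treated tumors 1, 2 and 5. Its span was narrow next to the other uptake genes, and it fell 4.45-fold when control 5 was left out.

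The acyl-CoA synthetases, which activate fatty acids, divided by gene. Acsl1, the main hepatic and adipose synthetase, was at 36.0 CPM in control 5, 1031 in control 6 and 1991 in control 7, and at 46.3, 41.3 and 38.6 CPM in treated tumors 1, 2 and 5. Acsl5, of mitochondria and intestine, was at 302 CPM in control 5, 551 in control 6 and 851 in control 7, and at 347, 262 and 333 CPM in treated tumors 1, 2 and 5. For Acsl1 the treated libraries and control 5 lay close together and far below controls 6 and 7, whereas for Acsl5 controls 6 and 7 were only 1.83 and 2.82 times control 5. The log2 fold changes were -4.60 ± 1.31 (SE, adjusted p = 0.247) and -0.86 ± 0.44 (SE, adjusted p = 0.353) in edgeR over all libraries, and without control 5 the genes fell 35.1-fold and 2.18-fold. Acsl3, which serves lipid droplets, was at 42.7 CPM in control 5, 30.1 in control 6 and 44.0 in control 7, and at 61.1, 52.4 and 50.1 CPM in treated tumors 1, 2 and 5. Its treated libraries all lay above the controls, with a log2 fold change of 0.49 ± 0.22 (SE, adjusted p = 0.320) in edgeR, an exact permutation p of 0.1, which is the smallest that 3 against 3 libraries allow, and an adjusted p of 0.0608 without control 5. Acsl4, which prefers arachidonic acid, was at 112 CPM in control 5, 102 in control 6 and 163 in control 7, and at 98.1, 106 and 81.9 CPM in treated tumors 1, 2 and 5, and its groups overlapped. Its log2 fold change of -0.39 ± 0.26 (SE) turned above 0 with scaling by library totals, and its adjusted p was 0.174 without control 5.

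Expressed per kilobase of the principal transcript, Acsl5 made up 63.3% of the synthetase level in control 5 and 58.4 to 67.3% in the treated tumors, but 30.8% and 26.6% in controls 6 and 7. Acsl1 made up 8.22% in control 5, 8.50 to 10.0% in the treated tumors and 62.8% and 67.8% in controls 6 and 7. The leading synthetase was thus Acsl5 in control 5 and the treated tumors and Acsl1 in controls 6 and 7, a difference within the control group itself.

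**Figure D2:**
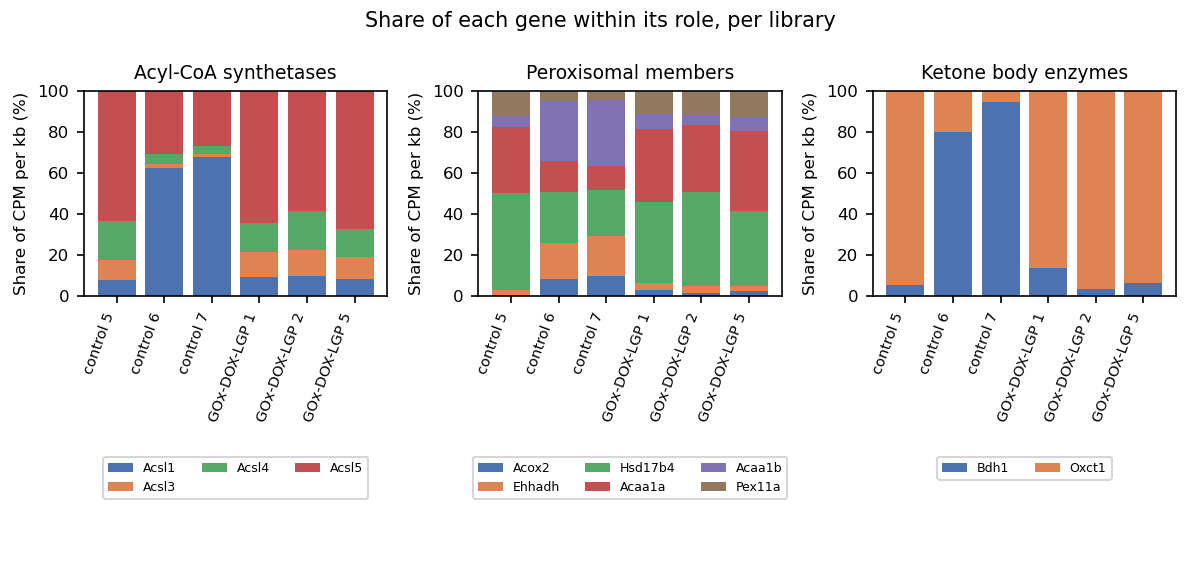
Share of each gene in the summed CPM per kilobase of its step, in percent, for the acyl-CoA synthetases, the peroxisomal genes and the ketone body enzymes, with one bar per library. Acsl1, Acaa1b, Ehhadh and Bdh1 take larger shares in controls 6 and 7 than in control 5 and the treated tumors.

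In the carnitine shuttle controls 6 and 7 again lay highest, with a smaller span. Cpt1a, the liver form of the outer membrane transferase that sets the pace of entry, was at 136 CPM in control 5, 512 in control 6 and 619 in control 7, and at 133, 184 and 109 CPM in treated tumors 1, 2 and 5. Cpt2, its partner on the inner membrane, was at 14.8 CPM in control 5, 80.1 in control 6 and 137 in control 7, and at 15.5, 15.2 and 15.0 CPM in treated tumors 1, 2 and 5. For Cpt2 the treated tumors and control 5 lay within 1 CPM of each other. Slc25a20, the carnitine-acylcarnitine carrier between them, was at 13.6, 83.5 and 119.8 CPM in the controls against 15.4, 14.5 and 14.7 CPM in the treated tumors. Crat, the carnitine acetyltransferase that handles short chains, had the smallest log2 fold change of the shuttle, -0.62 ± 0.32 (SE, adjusted p = 0.348) in edgeR, from 32.4, 60.0 and 67.5 CPM in the controls against 31.7, 40.2 and 31.8 CPM in the treated tumors, and it too turned above 0 with scaling by library totals. All 4 genes fell without control 5, by 3.90-fold for Cpt1a, 6.96-fold for Cpt2, 6.69-fold for Slc25a20 and 1.80-fold for Crat. In that fit 25.5% of all genes were called lower. Cpt1b, the muscle form, had 1, 1 and 2 counts in the controls and 0, 0 and 3 in the treated tumors and was not tested, and 78.6% of its 50-base stretches also belong to the read-through gene Gm44502. At a count of 0 the level could be up to 0.148 CPM in GOx-DOX-LGP 1 and 0.147 CPM in GOx-DOX-LGP 2.

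In the mitochondrial spiral all 12 genes had a log2 fold change below 0, from -3.06 for Acaa2 to -1.10 for Acadl. In edgeR 10 had an unadjusted p under 0.05, where 14.6% of all genes kept were called lower. All 12 fell at an adjusted p under 0.05 in edgeR once control 5 was left out, as did 25.5% of all genes in that fit. Among the acyl-CoA dehydrogenases, which open each turn, the very-long-chain enzyme Acadvl was at 29.3 CPM in control 5, 128 in control 6 and 183 in control 7, and at 27.2, 29.4 and 26.1 CPM in treated tumors 1, 2 and 5. Acadm, the medium-chain enzyme, was at 64.0 CPM in control 5, 398 in control 6 and 563 in control 7, and at 76.3, 69.3 and 71.2 CPM in treated tumors 1, 2 and 5. Acads, the short-chain enzyme, was at 14.3 CPM in control 5, 101 in control 6 and 164 in control 7, and at 15.3, 16.5 and 14.3 CPM in treated tumors 1, 2 and 5. Control 5 lay inside the treated range or just under it in all of these, and 26.9% of the 50-base stretches of Acadvl lie in exons of Dvl2 on the opposite strand. Acadl, the long-chain enzyme, differed less, at 154, 360.4 and 524 CPM in the controls against 175, 149 and 160.3 CPM in the treated tumors. Without control 5 these 4 dehydrogenases fell, by 8.43-fold for Acads, 5.52-fold for Acadvl, 2.68-fold for Acadl and by 2.70 on the log2 scale for Acadm.

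The trifunctional protein, which carries the next steps for long chains, is built from Hadha and Hadhb, and the genes of these subunits lie side by side on chromosome 5 (GRCm38), on opposite strands. Hadha was at 109, 367 and 547 CPM in the controls against 109.7, 127 and 108 CPM in the treated tumors. Hadhb was at 57.1, 207 and 310.1 CPM in the controls against 58.8, 61.5 and 65.5 CPM, and 19.7% of its 50-base stretches also occur in other genes. Their log2 fold changes, -1.57 ± 0.58 and -1.63 ± 0.59 (SE), lay within their errors of each other, and without control 5 they fell 3.88-fold and 4.08-fold. Hadh, the dehydrogenase for shorter chains, was at 62.0, 308 and 464 CPM in the controls against 69.1, 66.4 and 69.0 CPM. The hydratase Echs1 was at 59.2, 207 and 313 CPM in the controls against 69.0, 58.1 and 86.4 CPM, with its highest treated level in tumor 5. Acaa2, the mitochondrial thiolase that releases acetyl-CoA, had the widest span of the spiral, at 66.2 CPM in control 5, 723 in control 6 and 1209 in control 7, and at 87.6, 72.1 and 79.9 CPM in treated tumors 1, 2 and 5. Controls 6 and 7 were 10.9 and 18.3 times control 5 for Acaa2, and 2.34 and 3.41 times for Acadl. Without control 5 Hadh fell 5.54-fold, Echs1 3.57-fold and Acaa2 11.8-fold.

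The auxiliary enzymes that deal with double bonds gave the same pattern. The isomerase Eci1 was at 16.9, 84.8 and 121 CPM in the controls against 17.3, 17.9 and 18.3 CPM in the treated tumors. Its relative Eci2 was at 27.6, 148 and 204 CPM in the controls against 28.2, 30.7 and 24.5 CPM. The dienoyl-CoA reductase Decr1 was at 52.2, 229 and 367 CPM in the controls against 55.8, 55.3 and 60.5 CPM. In each of them control 5 lay among the treated tumors or just below them, and without control 5 they fell by 5.64-fold, 6.18-fold and 5.09-fold. The electron transfer flavoprotein passes the electrons of the dehydrogenases on to ubiquinone through its oxidoreductase Etfdh. Etfdh (chr3:79603788-79629500, GRCm38) was at 48.6 CPM in control 5, 270.3 in control 6 and 442 in control 7, and at 40.0, 40.9 and 36.6 CPM in treated tumors 1, 2 and 5. It was the only one of the 38 genes whose control libraries all lay above the treated ones, with a log2 fold change of -2.70 ± 0.76 (SE, adjusted p = 0.247) in edgeR and an exact permutation p of 0.1, and it fell 8.89-fold without control 5. The flavoprotein subunit Etfa was at 83.3, 392 and 619 CPM in the controls against 91.1, 79.9 and 84.2 CPM, and the subunit Etfb at 4.91, 24.7 and 36.7 CPM in the controls against 5.73, 4.36 and 7.60 CPM. For both, control 5 lay inside the treated range, and without it they fell 5.81-fold and 5.08-fold. As 44.8% of the 50-base stretches of Etfb also occur in other genes, chiefly Gm45233, its counts are uncertain.

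**Figure D3:**
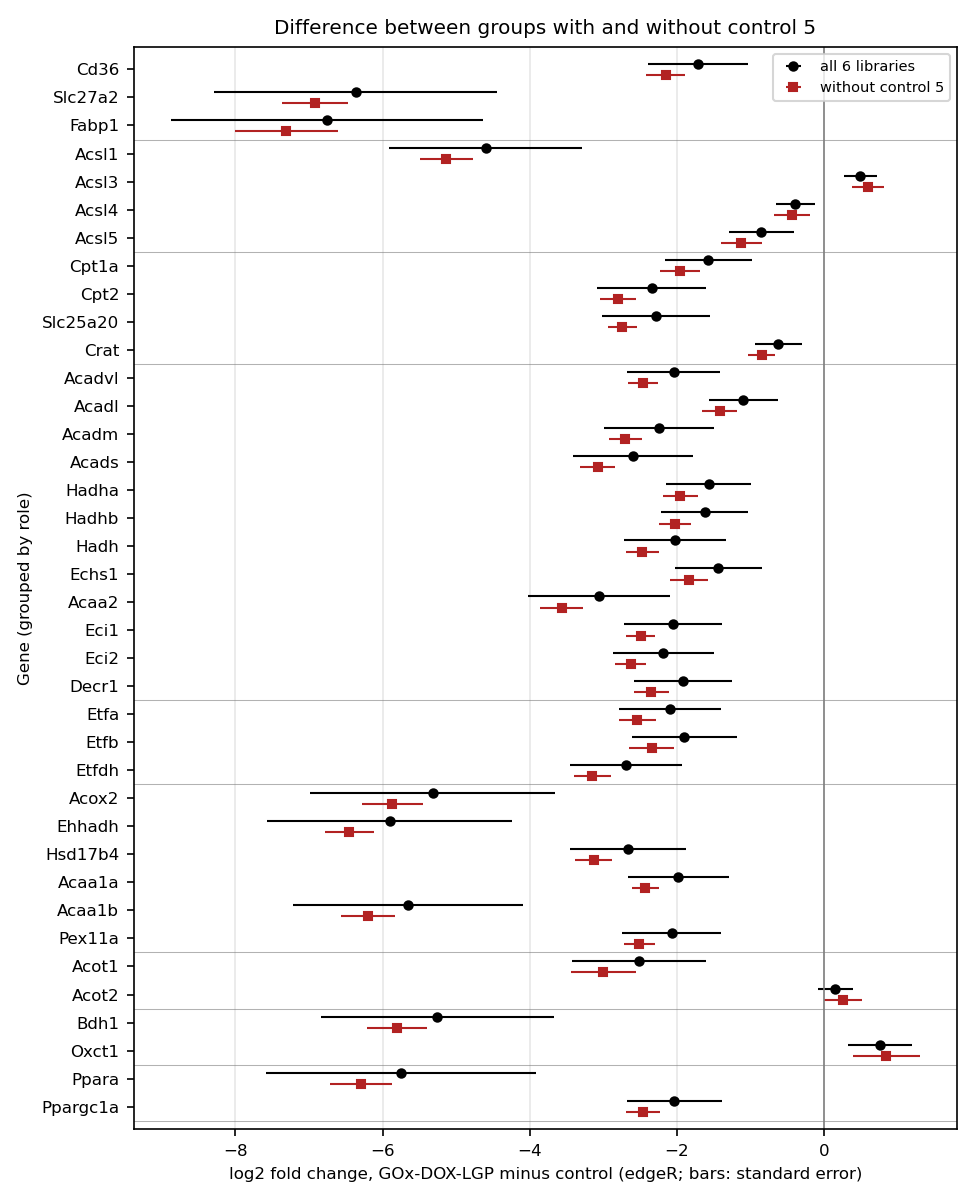
Log2 fold change, GOx-DOX-LGP minus control, of the 38 genes kept, with bars for the standard error, from edgeR on all 6 libraries (black circles) and without control 5 (red squares). Without control 5 the bars of most genes are shorter, and 34 genes lie below 0 at an adjusted p under 0.05.

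The peroxisomal genes split into a pair of patterns. Ehhadh, the bifunctional enzyme of the classical, PPARα-driven spiral (chr16:21761287-21787807, GRCm38), was at 2.85 CPM in control 5, 302 in control 6 and 559 in control 7, and at 4.89, 5.34 and 4.16 CPM in treated tumors 1, 2 and 5. Acaa1b, a peroxisomal thiolase, was at 4.08 CPM in control 5, 288 in control 6 and 530.2 in control 7, and at 6.43, 3.97 and 5.93 CPM in treated tumors 1, 2 and 5. Acox2, the oxidase for branched chains and bile acid intermediates, was at 1.18 CPM in control 5, 148 in control 6 and 279 in control 7, and at 4.89, 2.20 and 3.59 CPM in treated tumors 1, 2 and 5. In these 3 genes controls 6 and 7 were 70.5 to 236 times control 5. Hsd17b4, the bifunctional enzyme for branched and very long chains, was at 59.2 CPM in control 5, 388 in control 6 and 589 in control 7, and at 54.5, 59.8 and 49.2 CPM in treated tumors 1, 2 and 5. The thiolase Acaa1a was at 26.6, 157 and 192 CPM in the controls against 32.0, 28.0 and 34.7 CPM. Pex11a, which promotes division of peroxisomes, was at 12.6, 63.2 and 91.0 CPM in the controls against 13.0, 12.4 and 14.2 CPM. For these latter 3 genes controls 6 and 7 were 5.02 to 9.96 times control 5.

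All 6 peroxisomal genes had an unadjusted p under 0.05 in edgeR, where 14.6% of all genes kept were called lower. Their log2 fold changes ran from -5.90 for Ehhadh to -1.98 for Acaa1a. Without control 5 all 6 fell, from 87.5-fold for Ehhadh to 5.39-fold for Acaa1a, where 25.5% of all genes in that fit were called lower. Per kilobase, Ehhadh was 0.0434 times Hsd17b4 in control 5, 0.0761 to 0.0809 times in the treated tumors and 0.702 and 0.854 times in controls 6 and 7. Acaa1b was likewise 0.160 times Acaa1a in control 5 and 1.92 and 2.88 times in controls 6 and 7. The thiolase genes are near copies, and 30.5% of the 50-base stretches of Acaa1b also occur in Acaa1a, so their split is uncertain.

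The cytosolic thioesterase Acot1 and the mitochondrial Acot2, which free fatty acids from CoA, lie next to each other on chromosome 12 (GRCm38) and share 24.5% of the 50-base stretches of Acot2. Acot1 was at 1.27 CPM in control 5, 8.23 in control 6 and 17.6 in control 7, and at 1.19, 2.16 and 1.35 CPM in treated tumors 1, 2 and 5. Acot2 was at 7.68 CPM in control 5, 6.19 in control 6 and 7.32 in control 7, and at 8.35, 7.79 and 7.39 CPM in treated tumors 1, 2 and 5. The neighbours thus differed in pattern, for Acot1 was highest in controls 6 and 7 and Acot2 was nearly level in all 6 libraries. Their log2 fold changes were -2.52 ± 0.91 and 0.15 ± 0.24 (SE), and neither passed the adjustment in edgeR over all libraries. Without control 5 Acot1 fell 8.02-fold (edgeR adjusted p = 0.00159), while Acot2 had a log2 fold change of 0.25 ± 0.26 (SE, adjusted p = 0.453).

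The ketone body enzymes differed in pattern. Bdh1, which interconverts acetoacetate and β-hydroxybutyrate and is abundant in liver (chr16:31422280-31458901, GRCm38), was at 3.11 CPM in control 5, 284 in control 6 and 458 in control 7, and at 9.34, 4.02 and 6.09 CPM in treated tumors 1, 2 and 5. Oxct1, the enzyme that lets tissues outside the liver burn ketone bodies and that hepatocytes lack, was at 60.8 CPM in control 5, 79.5 in control 6 and 27.9 in control 7, and at 66.8, 121 and 96.4 CPM in treated tumors 1, 2 and 5. Bdh1 was lowest in control 5 and highest in control 7, and Oxct1 was lowest in control 7 and highest in GOx-DOX-LGP 2. Per kilobase, Bdh1 made up 5.47% of the pair in control 5, 80.1% in control 6 and 94.9% in control 7, and 13.6%, 3.62% and 6.66% in the treated tumors. The log2 fold change was -5.26 ± 1.58 (SE, adjusted p = 0.247) for Bdh1 and 0.75 ± 0.44 (SE, adjusted p = 0.388) for Oxct1 in edgeR. Without control 5 Bdh1 fell 55.9-fold, while Oxct1 had a log2 fold change of 0.84 ± 0.45 (SE, adjusted p = 0.159). Both genes share about 11% of their 50-base stretches with a gene on the opposite strand, and whether counting used the strand is not given in the sources used here. Over the whole list, 15 genes shared more than 5% of their 50-base stretches with another gene and 13 overlapped an exon on the opposite strand.

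The regulators were at low levels in all but controls 6 and 7. Ppara, the nuclear receptor (chr15:85734983-85802819, GRCm38), was at 0.395 CPM in control 5, 124 in control 6 and 177 in control 7, and at 3.02, 1.42 and 1.14 CPM in treated tumors 1, 2 and 5. Control 5 held 9 counts of it and the treated tumors 61, 29 and 22, so the position of these 4 libraries rests on few reads. Ppargc1a, which encodes PGC-1α, was at 4.65 CPM in control 5, 24.2 in control 6 and 25.6 in control 7, and at 3.71, 4.60 and 4.89 CPM in treated tumors 1, 2 and 5. The log2 fold change was -5.75 ± 1.83 (SE, adjusted p = 0.247) for Ppara and -2.04 ± 0.64 (SE, adjusted p = 0.247) for Ppargc1a in edgeR, and without control 5 both fell, by 78.5-fold and 5.53-fold.

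Ratios of a pair of genes within a library do not depend on how libraries are scaled. The log2 ratio of Oxct1 to Bdh1 counts was 4.28 in control 5, -1.84 in control 6 and -4.03 in control 7, and 2.83, 4.90 and 3.98 in the treated tumors. For Acsl4 to Acsl1 it was 1.63, -3.34 and -3.61 in the controls and 1.08 to 1.36 in the treated tumors, and for Hsd17b4 to Ehhadh 4.36, 0.36 and 0.08 against 3.47 to 3.56. Control 5 lay on the side of the treated tumors in each. The groups overlapped in all 6 ratios computed, and the two-sided exact permutation p was 0.3 to 1, or 0.48 to 1 after Benjamini-Hochberg adjustment over the 6. Without control 5, where the smallest p of the design is 0.1, it was 0.1 for 5 of the ratios and 1 for Cpt1b to Cpt1a.

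**Figure D4:**
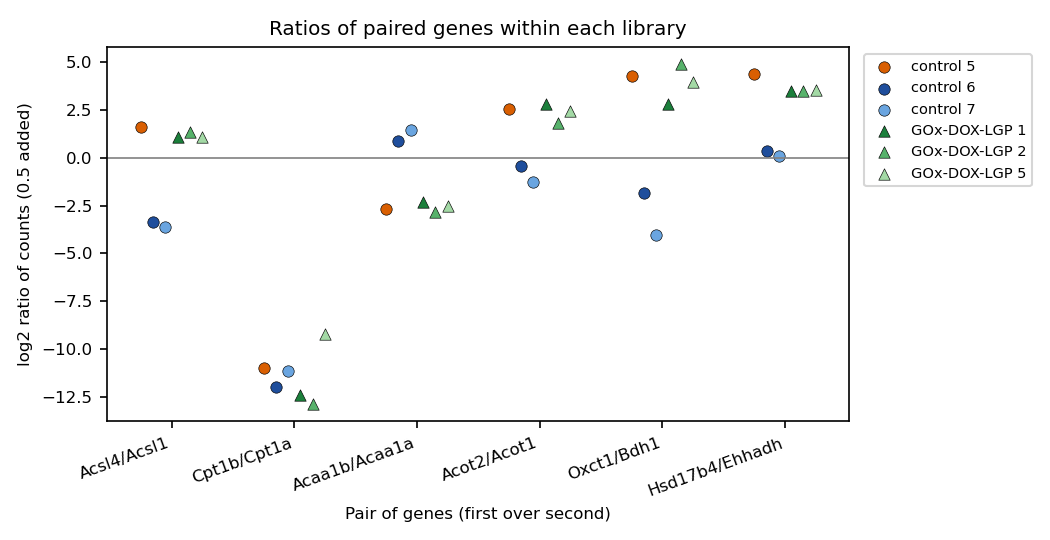
Log2 ratio of the counts of paired genes within each library, with 0.5 added to each count, for 6 pairs. In 5 pairs control 5 (orange) sits with the treated libraries (triangles) and away from controls 6 and 7 (blue), and for Cpt1b to Cpt1a, with at most 3 counts of Cpt1b, the libraries are scattered.

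The treated tumors were close to each other in these genes. The highest treated level was a median of 1.23 times the lowest over the 38 genes, and 27 of them were within 1.5 times, where the median over all genes kept was 1.39 and 60.6% were within 1.5 times. In the control group the median was 7.42 times, against 2.15 over all genes kept. The widest treated span was that of Fabp1, at 3.83 times, and the widest control span was also that of Fabp1.

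Grouped by how far controls 6 and 7 exceeded control 5, with limits of 3 and 20 set after the values had been seen and so with no test, the genes fell into 3 sets. In 8 genes both controls were more than 20 times control 5, namely Slc27a2, Fabp1, Acsl1, Acox2, Ehhadh, Acaa1b, Bdh1 and Ppara, with 28.7 to 398 times for control 6 and 55.3 to 744 times for control 7. In 23 genes, among them 11 of the 12 of the mitochondrial spiral and the whole electron transfer flavoprotein system, both lay from 3 to 20 times. In the other 7, Acsl3, Acsl4, Acsl5, Crat, Acadl, Acot2 and Oxct1, they lay from 0.459 to 3.41 times. The 12 hepatocyte markers lay from 75.7 to 762 times for control 6 and from 120 to 2050 times for control 7.

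Among the treated tumors the 38 genes were highest in GOx-DOX-LGP 1 for 17, in GOx-DOX-LGP 2 for 13 and in GOx-DOX-LGP 5 for 8. The 8 genes of the first set were highest in GOx-DOX-LGP 1 for 7 and in GOx-DOX-LGP 2 for Ehhadh, and lowest in GOx-DOX-LGP 2 for 4 and in GOx-DOX-LGP 5 for 4. The 12 hepatocyte markers were highest in GOx-DOX-LGP 1 for all 12 and lowest in GOx-DOX-LGP 2 for 11 and in GOx-DOX-LGP 5 for 1. The part of hepatocyte RNA in the levels of the 8 genes was not tested. Of other tissues with high fatty acid oxidation, 6 skeletal and heart muscle markers summed to 0.538 to 2.03 CPM and the 2 brown adipocyte markers to at most 0.245 CPM over the 6 libraries. The 6 adipocyte markers summed to 7.76 to 15.6 CPM, most of it Lipe, while Adipoq, Plin1, Lep and Retn were at or near 0. Cidec, which is also induced in fatty liver, was at 0, 2.71 and 2.26 CPM in the controls and at 0.0980 to 0.208 CPM in the treated tumors, and so was higher in controls 6 and 7 like most of the 39 genes. Of cell types that take up fatty acids through Cd36, 6 macrophage markers summed to 1347, 946 and 605 CPM in the controls and to 1286 to 3489 CPM in the treated tumors, and 6 endothelial markers to 125, 292 and 331 CPM and to 91.6 to 111 CPM. The endothelial markers were not alike. Kdr, Tek and Stab2 were 4.34 to 11.0 times control 5 in controls 6 and 7, Pecam1 and Cdh5 1.10 to 1.41 times, and Emcn 0.473 and 0.671 times. The 5 T cell markers summed to 21.6 to 48.8 CPM in the controls and 80.1 to 132 CPM in the treated tumors, and the 5 fibroblast or stellate markers to 1331 to 5671 CPM and 2169 to 6756 CPM. None of these sums was tested for a part in the levels of the genes above.

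**Figure D5:**
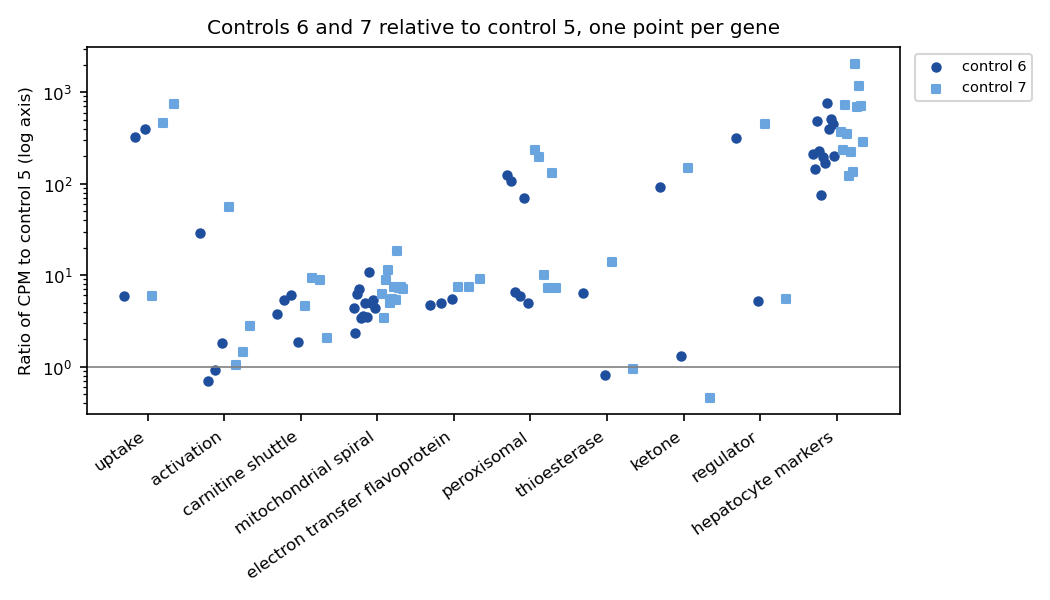
Ratio of the CPM of control 6 (circles) and control 7 (squares) to that of control 5, on a log axis, for each of the 38 genes kept and the 12 hepatocyte markers. The mitochondrial spiral clusters from 2.34 to 18.3, the uptake, peroxisomal, ketone and regulator steps each hold genes above 70, and the hepatocyte markers lie from 75.7 upwards.

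Of a list of 76 other genes of the pathway, 71 were kept. Their log2 fold change was below 0 for 60 and above 0 for 11, against 48.9% of all genes kept below 0, and its median was -1.78. In edgeR 41 had an unadjusted p under 0.05, all lower, against the 14.6% of all genes kept. With adjustment 0 passed in edgeR, while DESeq2 called 32 lower and 0 higher, against 8.86% and 0.567% of the 17812 genes it tested. Of the 75 kept without control 5, 55 fell and 9 rose at an adjusted p under 0.05 in edgeR, against 25.5% and 22.2% of all genes in that fit. The PPAR targets and regulators among them were mixed, with a median log2 fold change of -0.27, 5 of the 16 kept above 0, and 9 falls and 5 rises among the 19 kept without control 5. The median leaves out Cyp4a10, Cyp4a14 and Cyp4a31, whose log2 fold changes in DESeq2 were -9.27, -8.50 and -7.20. The thioesterases and the genes of ketone body use also had medians nearer 0 than the whole list, -0.92 and -0.83. Among the genes kept over all 6 libraries, the largest negative values were those of Cyp4a32, an ω-hydroxylase (-6.97), Slc27a5, the bile acid and fatty acid CoA ligase of liver (-6.54), and Acsm5, a medium-chain synthetase (-6.11). Cyp4a32 was at 0.132, 139.8 and 81.4 CPM in the controls against 0.593, 0.784 and 0.364 CPM in the treated tumors. It had 3 counts in control 5 and 12, 16 and 7 in the treated tumors, so its low levels rest on few reads. Slc27a5 was at 0.746, 591 and 896 CPM in the controls against 8.40, 2.84 and 4.73 CPM. Without control 5 these 3 genes fell at an adjusted p under 0.05 in edgeR. Cyp4a10, Cyp4a14, Cyp4a31 and Acot3 did not pass the filter over all libraries and so have no place in that order, and they were named after their values were seen. Cyp4a10 was at 0.0439, 62.4 and 95.2 CPM in the controls against 0.148, 0.0490 and 0.0520 CPM in the treated tumors. That is 1 count in control 5 and 3, 1 and 1 in the treated tumors.

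The groups were apart on the lower side for 5 of the 71 genes and on the higher side for 2, no more than the 8.31% and 8.87% of all genes kept, so these counts set the list apart in neither direction. Acsf2, a synthetase of mitochondria, was at 7.55, 45.5 and 62.7 CPM in the controls against 6.18, 7.54 and 4.84 CPM in the treated tumors. Pex19, which brings proteins to the peroxisome membrane, was at 58.9, 94.6 and 128 CPM in the controls against 57.5, 47.4 and 54.5 CPM. Acad9, Vnn1 and Ncor1 had log2 fold changes between -0.59 and -0.20. On the higher side were Ucp2, a mitochondrial carrier, at 138, 83.4 and 61.6 CPM in the controls against 148, 158 and 162 CPM, and Acot9, a mitochondrial thioesterase, at 42.8, 20.6 and 10.7 CPM in the controls against 43.9, 57.5 and 44.6 CPM. Control 5 was the highest control for both. Without control 5, Acsf2 and Pex19 fell and Ucp2 and Acot9 rose at an adjusted p under 0.05 in edgeR, while Acad9, Vnn1 and Ncor1 did not pass. The largest positive log2 fold changes over all libraries were those of Acot9 (0.98 ± 0.50), Acot7 (0.86 ± 0.40) and Pparg (0.83 ± 1.07, SE). None passed, with edgeR adjusted p of 0.351, 0.323 and 0.656. Pparg, the adipose relative of Ppara, was at 41.1 CPM in control 5, 4.07 in control 6 and 1.83 in control 7, and at 32.3, 29.3 and 22.8 CPM in treated tumors 1, 2 and 5. Control 5 was thus the lowest library for Ppara and the highest for Pparg, and controls 6 and 7 the highest for Ppara and the lowest for Pparg. Without control 5 Pparg rose by 3.26 ± 0.38 on the log2 scale (SE, edgeR adjusted p = 0.000557).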

How the data were processed

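RNA of 6 tumors was sequenced from KAPA mRNA HyperPrep libraries. The authors deposited raw counts per gene, without normalization or pooling, and a second table of signal values, which equal those counts after division by 1 constant per library. The study's methods name TopHat and HTSeq for these counts, whereas the submitters' processing notes name Trimmomatic 0.38, HISAT2 2.1.0 and featureCounts 2.0.0. The build and the strand setting are not given in the sources used here. The 55536 gene identifiers are those of GENCODE M21 (GRCm38), which was used for positions.

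Counts were filtered with filterByExpr, scaled with TMM and tested with edgeR 4.0.16 (quasi-likelihood, two-sided, Benjamini-Hochberg over all genes kept, threshold 0.05) in R 4.3.3. The alternatives were DESeq2 1.42.0, limma 3.58.1 (voom), other scalings and filters, and leaving out each library. Single values were tested by exact permutation. A count of 0 allows a level of up to 3 counts, which covers counting error only. Sequence shared with other genes was counted in stretches of 50 bases. The test was tried on simulated counts. Plots were made with matplotlib 3.10.9 (Python 3.11.15). The genes and lists were chosen with earlier results of these data known. All 39 genes are named, and of the other pathway genes the 3 largest changes each way and those whose groups were apart.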

Additional observations from a re-analysis of the deposited data

How the results depend on the processing

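The count of genes with an adjusted p under 0.05 was 0 in edgeR over all 6 libraries, with 2685 genes at an unadjusted p under 0.05. It was 1680 of 17812 genes in DESeq2 and 9254 of 15374 in limma voom with sample quality weights. Among them were 21 and 35 of the 38 genes of fatty acid oxidation, with Acsl3 on the higher side in voom. Leaving out each library gave 0 to 7745 genes and 0 to 34 of the 38, and both upper values came without control 5, which left 2 controls. The number of the 38 whose groups were apart was 2 in the main test, 5 with library totals, 4 with the upper quartile and 2 to 36 when each library was left out, with 36 without control 5, 7 without GOx-DOX-LGP 2 and 4 without control 6. Over all 6 libraries, 8.31% of all genes kept were apart on the lower side and 8.87% on the higher side. Controls 6 and 7 lay above every treated library for 34.7% of all genes kept and below every one for 37.2%. Being apart was thus common among all genes once control 5 was left out. The counts for the remaining settings have no share over all genes beside them, so they do not set the list apart. Beyond control 5 the cause of the shifts in this number was not tested. The log2 fold change turned sign with library totals for Acsl4 (0.19) and Crat (0.040), where the median of all genes moved to 0.51 (0.19 with the upper quartile). Over all settings, 402 of the values for single genes kept their direction and their side of the threshold, 90 passed it newly in the same direction and 2 turned sign. The median over the 38 genes stayed between -2.50 and -1.25. No paired analysis was possible because the groups share only the replicate number 5. At 3 libraries a group the exact test cannot go below 0.1, and Cpt1b and Ppara in control 5 rest on fewer than 10 counts.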
